A study of Mus musculus with 6 samples.

Results

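The nuclear-encoded subunits of mitochondrial complexes III, IV and V were compared between control mouse livers and livers of a carcinogen-induced liver cancer model. Members were all genes of the deposited table whose symbol starts with Uqcr, Atp5, Cox4, Cox5, Cox6, Cox7 or Cox8, together with Cyc1 and Cycs, and 4 symbols that mark pseudogenes were left out. The rule found 43 of 25102 genes. Complex III had 9 of them, complex IV had 16 and complex V had 15, and the others were Cycs, which encodes somatic cytochrome c, and Atp5s and Atp5sl, which carry the name but are not subunits of the enzyme.

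The 6 libraries were made from poly(A) RNA of liver of male C57BL/6J mice that were 2 weeks old when they were assigned to a group, 3 control and 3 treated. Treated mice were injected intraperitoneally once with diethylnitrosamine (DEN) at 1 mg/kg and, about 6 weeks later, with carbon tetrachloride (CCl4) at 0.2 mL/kg, 2 times per week over no more than 14 weeks. Diethylnitrosamine forms DNA adducts after activation in hepatocytes, and carbon tetrachloride injures hepatocytes and leads to fibrosis. The labels give no treatment for the controls, do not say whether treated tissue was tumour or the liver around it, and do not tie replicate numbers to animals, so p-values reflect only how far these samples spread. Levels are FPKM, the fragments of a gene scaled by the length of its exons and by the mapped total of the library, and the depth of each library is unknown, as no counts were used. Where 3 values of a group follow each other, they are replicates 1, 2 and 3 in that order.

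Complex III (ubiquinol-cytochrome c reductase) passes electrons from ubiquinol to cytochrome c, complex IV (cytochrome c oxidase) passes them from cytochrome c to oxygen, and complex V (ATP synthase) uses the resulting proton gradient to make ATP. Each holds a small mitochondrially encoded core and a larger set of subunits encoded in the nucleus and imported, so both genomes have to supply each enzyme. Hepatocytes are rich in mitochondria and rely on these enzymes for gluconeogenesis, urea synthesis and fatty acid oxidation. Several complex IV subunits and subunit c of ATP synthase come in more than 1 gene, of which some are used mainly in muscle, lung or testis.

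Promoters of respiratory chain genes are known for binding sites of NRF-1 and of the ETS family factor GABP (NRF-2), so these letters were looked for first. RefSeq promoter windows of GRCm38.p6, from 250 bases before to 50 bases after the start, were matched for 31 of the 43 members and 27025 genes in all, on both strands. The short NRF-1 form GCATGCGC was in 7 members (22.58%) and in 3.049% of all genes, and the longer NRF-1 form (GCGCA, any base, then GCGC), which can overlap it, was in 8 (25.81%) and in 5.188%. The ETS core CCGGAAG was in 10 members (32.26%) and in 9.928% of all genes, and at least 1 of these 3 spellings was in 16 members (51.61%) and in 15.37%. The CRE TGACGTCA was in Cycs and Uqcrfs1 (2.031% of all genes), and the YY1 letters AAGATGGC in Atp5j and Atp5j2 (3.19%). All 7 short NRF-1 matches are shown because they span complexes III, IV and V and cytochrome c, and 6 ETS matches are shown because most of those genes gave the highest levels of their complex. Each stretch is 30 bases, read 5′ to 3′ on the strand of the gene, with the matched letters in capitals.
Uqcr11 (NRF-1 match, chr10:80406807-80406836, minus strand): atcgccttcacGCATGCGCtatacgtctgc
Uqcrc1 (NRF-1 match, chr9:108936667-108936696, plus strand): gactccgctctGCGCATGCgcagcgcggct
Cycs (NRF-1 match, chr6:50566611-50566640, minus strand): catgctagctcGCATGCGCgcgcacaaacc
Cox6a1 (NRF-1 match, chr5:115349102-115349131, minus strand): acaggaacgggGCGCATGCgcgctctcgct
Atp5g2 (NRF-1 match, chr15:102671071-102671100, minus strand): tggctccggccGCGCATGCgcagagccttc
Atp5k (NRF-1 match, chr5:108434431-108434460, minus strand): ctttcactgcgGCGCATGCgcctttctggc
Atp5l (NRF-1 match, chr9:44920963-44920992, minus strand): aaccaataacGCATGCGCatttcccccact
Uqcr11 (ETS match, chr10:80406869-80406898, minus strand): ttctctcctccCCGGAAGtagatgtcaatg
Uqcrh (ETS match, chr4:116075062-116075091, minus strand): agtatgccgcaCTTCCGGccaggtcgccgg
Cox6a1 (ETS match, chr5:115348956-115348985, minus strand): ccccatttccgCTTCCGGcgcgccggtgta
Cox8a (ETS match, chr19:7217603-7217632, minus strand): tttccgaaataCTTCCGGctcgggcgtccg
Cox6b1 (ETS match, chr7:30626124-30626153, minus strand): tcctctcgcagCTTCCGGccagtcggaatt
Atp5h (ETS match, chr11:115419939-115419968, minus strand): caaggagagaaCTTCCGGcaactctcttcc

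A match describes letters in a window and is no measure of binding. Cox6a1, Uqcr11, Atp5k and Atp5l held both the short NRF-1 form and the ETS core. Of the RefSeq window of Cox7a2l, the complex IV member that stood apart from the rest, the 200 bases before the RefSeq start are shown, and none of the 5 spellings searched is in them. They lie inside the longer span that GENCODE M21 gives the gene, and no GENCODE exon overlaps them. Of the 31 members with a window, 16 held an NRF-1 or ETS spelling, so lacking both was not particular to Cox7a2l.
Cox7a2l (upstream of the RefSeq start, chr17:83514334-83514533, minus strand): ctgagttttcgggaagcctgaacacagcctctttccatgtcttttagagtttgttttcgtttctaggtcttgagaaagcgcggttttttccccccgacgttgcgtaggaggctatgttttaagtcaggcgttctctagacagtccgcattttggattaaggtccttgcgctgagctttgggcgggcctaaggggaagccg

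Control and treated livers were checked as libraries before the members were compared. DEN+CCl4 replicate 3 stood apart: its 37 mitochondrially encoded genes took 64.2% of all FPKM against 26.6% to 42.95% in the other 5 libraries, 16447 genes were above 0 against 19260 to 20634, and the median tested gene was at 1.19 FPKM against 3.43 to 4.46. FPKM is scaled by the mapped total of each library, so a few abundant transcripts can lower the values of the rest. The main values are therefore also given after median-ratio scaling. In it, a library is divided by the median, over genes, of its level relative to the gene's geometric mean. The tested genes were the 8528 whose mean reached 1 FPKM, and scaling moved their median log2 fold change from -0.27 to -0.10. Among hepatocyte markers, Alb (albumin) was at 7482 to 24459 FPKM over the 6 libraries. Ttr (transthyretin) was at 2891.2 to 6045 FPKM in the controls, and the treated livers had 4130.2, 2103.4 and 219 FPKM. Serpinc1 (antithrombin) was at 42.4 to 75.1 FPKM in the controls against 67.8, 38.7 and 13.6 FPKM. For both, treated replicates 2 and 3 lay under the control range, as they did for most members. The other hepatocyte markers did not share this. Alb was highest in DEN+CCl4 replicate 2 and lowest in replicate 3. Apoa1 (apolipoprotein A-I) was at 10628 to 12690 FPKM in the controls and 10250, 35125 and 4111 in treated livers. Fgb (fibrinogen beta chain) was at 167 to 463 FPKM against 349, 301 and 273 FPKM. Apob (apolipoprotein B) was lowest in control replicate 3, at 4.99 FPKM. Its treated values of 29.4, 31.4 and 8.51 FPKM lay inside the control range.

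No member passed the test of treated against control livers (limma on log2(FPKM + 1), two-sided, Benjamini-Hochberg adjusted p under 0.05 over 8528 genes), while 0.645% of all genes passed as lower and 0.833% as higher. The 38 members that reached the filter had log2 fold changes from -1.90 to 0.11, with 37 of them negative against 74.4% of all genes, and their median was -1.24 against -0.27. After scaling, 37 of 38 were negative against 59.8% of all genes, and the medians were -0.96 and -0.10. With quantile normalization 35 of 38 were negative, and Cox7a2l, Atp5b and Atp5j were not. Only Cox7a2 had an unadjusted p under 0.05 as deposited, where 5.07% of all genes did on the lower side, and only Cox6c and Atp5sl did after scaling, where 6.74% did. With scaling, 0 members and 0.0% of all genes passed in either direction. These are bulk tissue samples, in which fewer cells of a type and less RNA per cell cannot be told apart.

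**Figure D1:**
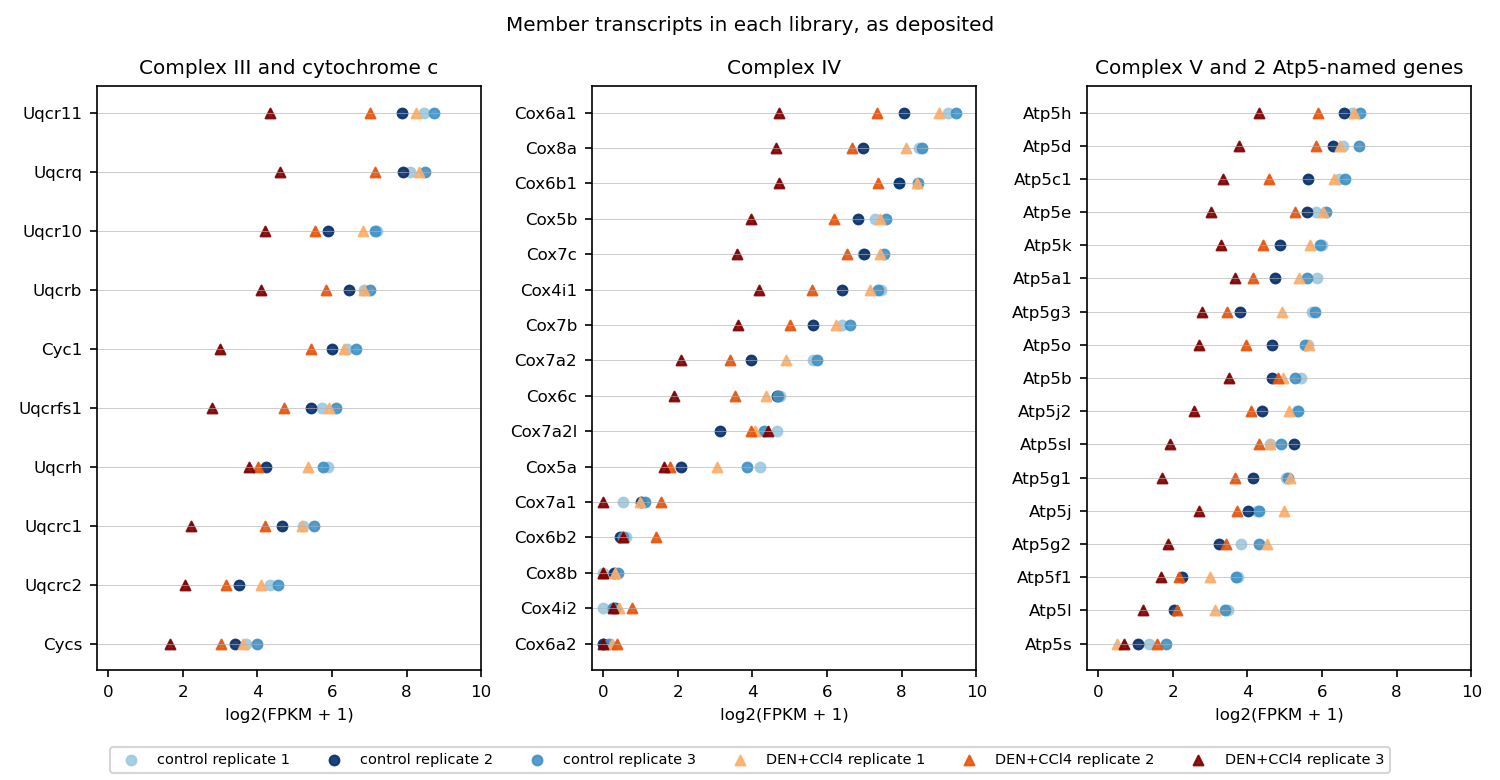
Level of each of the 43 members in the 6 libraries, on a log2(FPKM + 1) axis, by complex and in order of level; circles are control and triangles DEN+CCl4 libraries. The darkest triangle, DEN+CCl4 replicate 3, lies lowest for most members, DEN+CCl4 replicate 1 mostly lies among the controls, and Cox7a2l does not follow the others.

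The treated livers differed among themselves for these genes. As deposited, the summed FPKM of all 43 members was 3755, 2334 and 4367 in the controls. It was 3546, 1542 and 381.8 in treated livers. DEN+CCl4 replicate 1 thus lay within the controls and the other 2 treated livers below them. After scaling, 3 of the 38 tested members lay below every control in DEN+CCl4 replicate 1 (19.9% of all genes did), 36 did in replicate 2 (38.2%) and 29 did in replicate 3 (47.3%). As deposited those numbers were 2 (11.9%), 33 (22.7%) and 37 (83.9%).

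By complex, the median scaled difference from the control mean was -0.07, -1.36 and -1.66 for complex III in the treated livers. For complex IV it was -0.07, -1.56 and -1.82, and for complex V -0.05, -1.26 and -1.01. The median of all genes was -0.03, -0.10 and -0.23, so all 3 complexes lay below it in DEN+CCl4 replicates 2 and 3 and beside it in replicate 1. The controls differed too: control replicate 2 was at -0.49, -0.68 and -0.62 for complexes III, IV and V, and it was the lowest control for 37 of 38 members (43.8% of all genes). The complexes kept much the same proportions in 5 of the libraries, with 30.2% to 33.2% of the members' summed FPKM in complex III, 45.4% to 49.8% in complex IV and 18.3% to 20.8% in complex V. In DEN+CCl4 replicate 3 these shares were 28.5%, 41.3% and 28.7%.

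**Figure D2:**
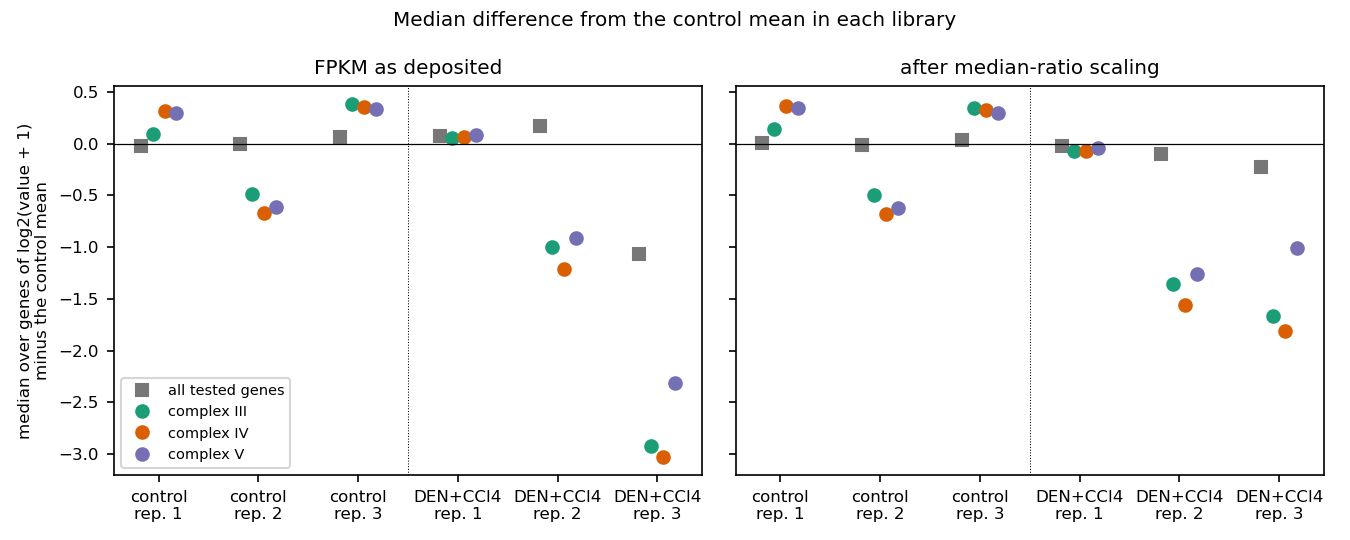
Median over genes of log2(value + 1) minus the control mean, for each library, for all tested genes (squares) and for complexes III, IV and V (circles), as deposited (left) and after median-ratio scaling (right). DEN+CCl4 replicates 2 and 3 sit at -1.01 or lower for each complex after scaling, replicate 1 sits near 0, and control replicate 2 sits at -0.49 to -0.68.

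The groups overlapped for nearly every member. Cox6c alone had all treated libraries below all controls as deposited (5.35% of all genes did so on the lower side and 3.01% on the higher), and Cox6c and Atp5sl did after scaling (8.68%). The median over members depended on which treated liver was in the comparison. Without DEN+CCl4 replicate 3 it was -0.46 (all genes 0.11), with 36 of 39 tested members negative against 39.2% of all genes. With scaling and without that library it was -0.71 (all genes -0.08), with 38 of 39 negative against 57.5% of all genes. Without DEN+CCl4 replicate 1 it was -1.85 (all genes -0.43), 0 members passed (3.21% of all genes passed as lower and 1.42% as higher), and 19 had an unadjusted p under 0.05 on the lower side, against 10.8% of all genes.

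In complex III, all 9 members had lower treated than control means, with a median log2 fold change of -1.26 (-1.01 after scaling, -0.46 without DEN+CCl4 replicate 3) and none past the threshold. Cyc1 encodes cytochrome c1, the haem protein that hands electrons to cytochrome c, and was at 83.5, 62.9 and 98.6 FPKM across the controls and 79.03, 42.8 and 7.06 across treated livers. The first treated liver lay between the controls and the other 2 below all of them. The log2 fold change of Cyc1 was -1.42 ± 0.97 (SE; limma adjusted p = 0.924), and -1.14 ± 0.55 after scaling (adjusted p = 0.477). Uqcrfs1, the Rieske iron-sulfur protein that takes the first electron from ubiquinol, was at 51.95, 42.2 and 67.9 FPKM in the control group and 59.3, 25.1 and 5.91 in the treated livers. Its groups overlapped through DEN+CCl4 replicate 1, and its log2 fold change was -1.29 ± 0.92 (SE; limma adjusted p = 0.946).

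Uqcrc1 and Uqcrc2 encode the core proteins, which face the matrix and are related to mitochondrial processing peptidases. Uqcrc1 was at 36.7, 24.2 and 45.1 FPKM in the controls and 35.7, 17.6 and 3.66 in treated livers. Uqcrc2 was at 19.4, 10.3 and 22.5 FPKM in the controls and 16.1, 7.95 and 3.22 in treated livers. In both genes DEN+CCl4 replicate 1 stood between the lowest and the highest control, and replicates 2 and 3 stood below the controls. Their log2 fold changes were -1.26 and -1.02.

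Uqcr11 and Uqcrq, both small accessory subunits, had the highest control means of complex III and, as deposited, its lowest log2 fold changes. Without DEN+CCl4 replicate 3, Uqcrh was at -0.60 and Uqcrq at -0.42. Uqcr11, the smallest subunit, was at 350.0, 233 and 428 FPKM across the controls and 306, 129 and 19.4 across treated livers. Only DEN+CCl4 replicates 2 and 3 were below the controls. At -1.81 ± 1.05 (SE; limma adjusted p = 0.791), Uqcr11 had the lowest log2 fold change of complex III, and scaling gave -1.51 ± 0.70. Uqcrq, a small subunit next to cytochrome b, was at 272, 239 and 360.4 FPKM across the controls and 319, 143 and 23.4 across treated livers, with DEN+CCl4 replicate 1 between the second and the highest control. Uqcr10, which lies near cytochrome c1 and the Rieske protein, had control values of 148, 58.7 and 141 FPKM and treated values of 112, 45.6 and 17.4 FPKM. Here control replicate 2 was nearer to DEN+CCl4 replicate 2 than to the other controls.

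Uqcrb, a subunit on the matrix side near the ubiquinone pocket, lay at 87.1 to 130.0 FPKM in the controls and 115, 56.9 and 16.2 in treated livers. Uqcrh, the acidic hinge protein that helps cytochrome c1 meet cytochrome c, had 58.1, 17.7 and 53.7 FPKM in controls against 39.9, 15.4 and 12.6 FPKM in treated livers, and its log2 fold change of -0.91 ± 0.89 (SE; limma adjusted p = 0.996) was the highest of the complex. After scaling, the treated values of Uqcrh were 32.04, 10.5 and 30.2 FPKM against 52.96, 15.5 and 46.2, so 1 control was below replicates 1 and 3. Levels per length ran from a control mean of 17.4 FPKM (Uqcrc2) to 337 FPKM (Uqcr11), a 19.4-fold range within 1 enzyme.

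Cycs, the mobile carrier between complexes III and IV that also triggers apoptosis when released, was at 11.9, 9.63 and 14.97 FPKM across the controls and 11.2, 7.18 and 2.19 across treated livers. Its treated values were lower than all controls in replicates 2 and 3 and between them in replicate 1. The log2 fold change was -0.93 ± 0.71 (SE; limma adjusted p = 0.966) and -0.69 ± 0.33 after scaling. Of its 31-base words, 29.4% also occur in other annotated genes, so its level is uncertain.

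In complex IV, 10 of the 11 tested members had negative log2 fold changes, with a median of -1.38 (-1.08 after scaling, -0.60 without DEN+CCl4 replicate 3), and none passed. The first nuclear subunits to join the mitochondrial core are products of Cox4i1 and Cox5a. Cox4i1, whose product binds ATP as an allosteric inhibitor, was at 174, 83.5 and 165 FPKM across the controls and 140.1, 47.8 and 17.3 across treated livers, with a log2 fold change of -1.43 ± 1.01 (SE; limma adjusted p = 0.944). Cox5a had control values of 17.6, 3.28 and 13.5 FPKM and treated values of 7.34, 2.44 and 2.13 FPKM. Control replicate 2 was lower for Cox5a than DEN+CCl4 replicate 1, and close to replicates 2 and 3. Its log2 fold change was -1.23 ± 0.65 (SE; limma adjusted p = 0.707). Cox5b, the zinc-binding subunit on the matrix side, had 154, 113 and 192 FPKM in controls against 169, 71.7 and 14.6 FPKM in treated livers, again with DEN+CCl4 replicate 1 inside the control range.

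The 3 most abundant members of complex IV, per length, were Cox6a1, Cox6b1 and Cox8a. Cox6a1 encodes the subunit 6a form used in liver, and was at 602, 265 and 705 FPKM across the controls and 509.6, 160.2 and 25.4 across treated livers. Control mean and treated mean were 524 ± 230.1 FPKM (SD, n = 3) and 232 ± 249.9 FPKM (SD, n = 3), so the spread within the treated group exceeded its mean. At -1.90 ± 1.06 (SE; limma adjusted p = 0.744), Cox6a1 had the lowest log2 fold change of all members. Cox6b1, whose product faces the intermembrane space at the dimer contact, had control values of 241, 245 and 347 FPKM and treated values of 339, 165 and 25.2 FPKM. Unlike for most members, control replicate 2 was close to control replicate 1 here. Cox8a, the general form of subunit 8, had control values of 353, 125 and 373 FPKM and treated values of 275, 101 and 23.8 FPKM, with control replicate 2 nearer to the second treated liver than to the other controls.

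Cox6c, a single-helix subunit of the membrane part, had the controls that lay closest together of all tested members, with 25.7, 24.4 and 24.95 FPKM and a mean of 25.01 ± 0.66 FPKM (SD, n = 3). Treated livers read 19.6, 10.5 and 2.73 FPKM and all lay below the controls. The log2 fold change was -1.44 ± 0.80 (SE; limma adjusted p = 0.741), and -1.19 ± 0.39 after scaling (adjusted p = 0.431). It passed in 1 setting, scaling without DEN+CCl4 replicate 1 (-1.56 ± 0.32, SE; limma adjusted p = 0.0319), where 5.15% of all genes passed as lower. Cox6c was singled out after its values were seen.

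Cox7b, needed for assembly of the enzyme, lay at 47.97 to 96.9 FPKM in the controls and 74.6, 31.03 and 11.3 in treated livers. Cox7c, another small membrane subunit, lay at 124 to 182 FPKM in the controls and 169, 91.8 and 11.00 in treated livers. Both had DEN+CCl4 replicate 1 inside the control range and the other 2 treated livers below it, as for most of the complex.

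Subunit 7a and its relative differed from each other in the treated livers. Cox7a2, the liver form, was at 48.6, 14.8 and 52.7 FPKM across the controls and 28.7, 9.56 and 3.25 across treated livers, and its log2 fold change was -1.66 ± 0.84 (SE; limma unadjusted p = 0.0494, adjusted p = 0.653). Cox7a2l encodes a 7a-related protein that joins complexes III and IV into supercomplexes, and C57BL/6J mice are known to carry a shorter form of it. The gene lies at chr17:83501918-83517330 on the minus strand (GENCODE M21, GRCm38). Cox7a2l was at 24.6, 7.73 and 18.9 FPKM across the controls and 15.7, 14.6 and 20.3 across treated livers. Control replicate 2 was the lowest of the 6 and the treated values lay within the control range. With 0.11 ± 0.81 (SE; limma adjusted p = 0.996) it was the only tested member with a positive log2 fold change, 1.49 above the median of complex IV. After scaling its treated values were 12.6, 9.98 and 48.5 FPKM against 22.4, 6.77 and 16.3, with replicate 3 above every control.

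The sign of the Cox7a2l value rested on 2 libraries: it was -0.35 without control replicate 2 and -0.03 without DEN+CCl4 replicate 3. With scaling it was 0.41, and -0.04 and -0.27 without those libraries. As a share of the FPKM of Cox7a1, Cox7a2 and Cox7a2l together, which dividing a library by a factor does not change, Cox7a2l held 33.3%, 32.9% and 26.0% in the controls. It held 34.6%, 55.8% and 86.2% in the treated livers, and Cox7a2 held 63.3%, 36.7% and 13.8% there against 62.8% to 72.4% in controls. For Cox7a2l, DEN+CCl4 replicate 1 was just above the highest control and the other 2 treated livers were further above it. For Cox7a2, replicate 1 was inside the control range and the other 2 were below it. Cox7a2l shares 16.6% of its 31-base words with the processed pseudogenes Gm6969 and Gm10242, so its level is uncertain.

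**Figure D3:**
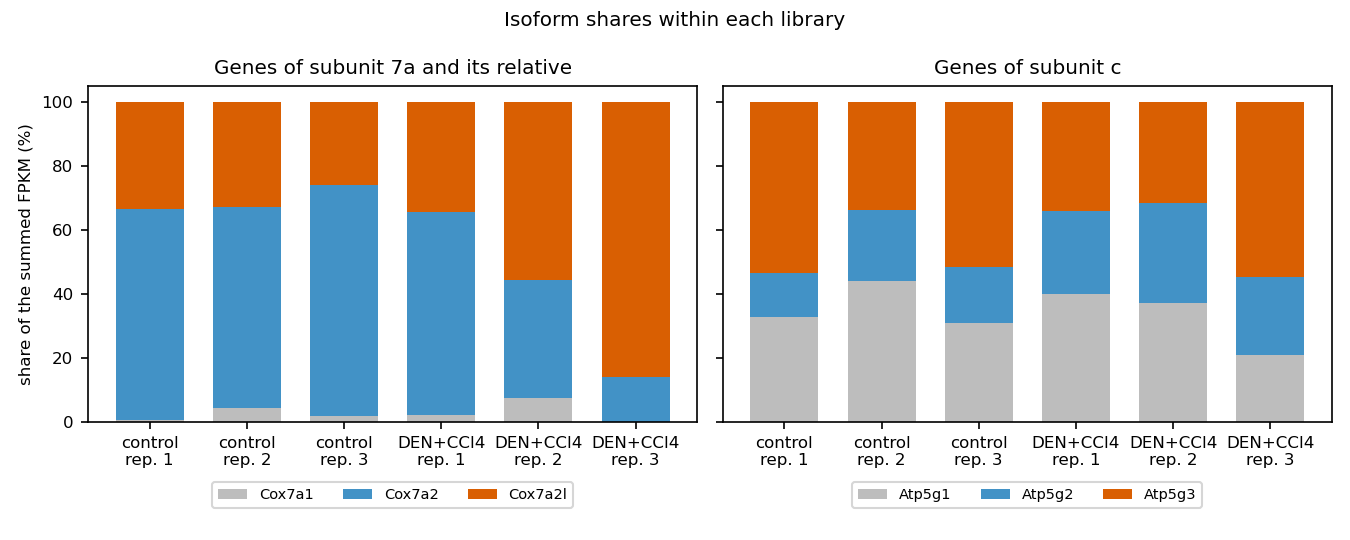
Share of summed FPKM (percent, stacked to 100) of Cox7a1, Cox7a2 and Cox7a2l (left) and of Atp5g1, Atp5g2 and Atp5g3 (right) in each library. Cox7a2l takes 26.0% to 34.6% in the controls and DEN+CCl4 replicate 1, 55.8% in replicate 2 and 86.2% in replicate 3, and Atp5g2 takes 13.7% to 22.2% of the subunit c genes in the controls and 24.3% to 31.4% in the treated livers.

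Forms used mainly outside liver were near 0 and were not tested. Cox7a1, the heart and muscle form, was at 0.45, 1.02 and 1.17 FPKM across the controls and 0.98, 1.96 and 0 across treated livers, with replicate 2 the highest and replicate 3 listed at 0. Cox6b2, the testis form, had 0.52, 0.36 and 0.44 FPKM in controls against 0.46, 1.69 and 0.45 FPKM in treated livers, with DEN+CCl4 replicate 2 highest. Cox4i2, the lung form, had 0, 0.25 and 0.21 FPKM in controls against 0.35, 0.72 and 0.20 FPKM in treated livers. It made up at most 0.298% of Cox4i1 and Cox4i2 together in controls and 0.249%, 1.48% and 1.14% in the treated livers. Cox6a2 and Cox8b, the heart and muscle forms of subunits 6a and 8, did not exceed 0.32 FPKM in any library. Striated muscle markers summed to 0.03 to 0.12 FPKM and 1 testis germ cell marker listed, Ldhc, to at most 0.07 FPKM.

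In complex V, all 15 members had negative log2 fold changes as deposited, although Atp5b was at 0.031 and Atp5j at 0.15 with quantile normalization. The median was -1.09 (-0.81 after scaling, -0.42 without DEN+CCl4 replicate 3), and none passed. The F1 head makes ATP at the beta subunits, which alternate with alpha around the turning gamma shaft. Atp5a1 (alpha) was at 57.1, 25.9 and 47.1 FPKM across the controls and 40.5, 16.9 and 11.8 across treated livers. Atp5b (beta) had control values of 41.9, 24.5 and 38.1 FPKM and treated values of 29.8, 27.4 and 10.5 FPKM. For Atp5b as deposited, both DEN+CCl4 replicates 1 and 2 were inside the control range. After scaling, its treated values were 24.0, 18.8 and 24.95 FPKM against 38.3, 21.4 and 32.8, so only replicate 2 was below the controls. The log2 fold change of Atp5b was -0.70 ± 0.88 (SE; limma adjusted p = 0.996) against -0.99 ± 0.90 (adjusted p = 0.996) for Atp5a1. Atp5c1 (gamma) had control values of 87.2, 48.00 and 96.6 FPKM and treated values of 78.7, 23.1 and 9.25 FPKM, and had the lowest log2 fold change of the complex, -1.47 ± 0.95 (SE; limma adjusted p = 0.88).

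Atp5d (delta), at the foot of the shaft, was at 93.8, 77.7 and 127 FPKM across the controls and 88.4, 55.9 and 12.8 across treated livers. Atp5e (epsilon), its partner there, had 55.7, 47.5 and 68.3 FPKM in controls against 63.7, 37.6 and 7.14 FPKM in treated livers. DEN+CCl4 replicate 1 was inside the control range for both, and replicates 2 and 3 were below it. Within the F1 head, log2 fold changes thus ran from -1.47 for gamma to -0.70 for beta (-1.18 and -0.41 after scaling), and the SEs of these values overlap.

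Subunit c forms the rotating membrane ring and is made from 3 genes whose mature products are identical. Atp5g1 was at 31.6, 16.7 and 32.9 FPKM across the controls and 34.4, 11.6 and 2.26 across treated livers. Atp5g2 had 13.2, 8.45 and 19.01 FPKM in controls against 22.2, 9.85 and 2.64 FPKM in treated livers, and Atp5g3 had 51.9, 12.9 and 55.1 FPKM in controls against 29.3, 9.90 and 5.95 FPKM in treated livers. DEN+CCl4 replicate 1 was the highest of the 6 libraries for Atp5g1 and Atp5g2 and below 2 controls for Atp5g3. Log2 fold changes were -1.25, -0.52 and -1.39, and that of Atp5g2 was 0.19 without DEN+CCl4 replicate 3. Of the 3 together, Atp5g3 held 53.7%, 33.9% and 51.5% in the controls and 34.1%, 31.5% and 54.8% in treated livers, with no separation of the groups. Atp5g2 held 13.7%, 22.2% and 17.8%, against 25.9%, 31.4% and 24.3%, so its share was higher in each treated liver than in each control. Atp5g2 shares 40.2% of its 31-base words with other annotated genes, and its share is uncertain for that reason.

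The stalk holds the head still against the ring. Atp5h (subunit d), the most abundant member of complex V per length, was at 110.1, 95.4 and 129 FPKM across the controls and 115, 58.8 and 18.98 across treated livers. Atp5o (OSCP, the cap of the stalk) lay at 24.3 to 48.2 FPKM in the controls and 49.4, 14.6 and 5.57 in treated livers, and Atp5f1 (subunit b) at 3.79 to 12.4 FPKM against 6.96, 3.46 and 2.19 FPKM. As deposited, these had replicates 2 and 3 below the controls and replicate 1 inside or just above their range. After scaling, Atp5f1 in DEN+CCl4 replicate 3 was at 5.23 FPKM, above control replicate 2 at 3.32 FPKM. Atp5j (coupling factor 6) differed: it was at 18.1, 15.3 and 18.9 FPKM across the controls and 30.8, 12.1 and 5.53 across treated livers, so replicate 1 was above every control and replicates 2 and 3 below. With -0.40 ± 0.80 (SE; limma adjusted p = 0.996) it had the highest log2 fold change of complex V, and 0.15 without DEN+CCl4 replicate 3. Its exons overlap those of Gabpa, on the opposite strand, over 397 bases (12.7% of its exon length). The use of strand in counting is not given in the sources used here, so reads there cannot be assigned. Gabpa itself was at 1.06 to 1.55 FPKM in the controls and 1.44, 1.78 and 0.36 in treated livers.

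Subunits e, f and g sit in the membrane, where ATP synthase dimers shape the cristae. Atp5k (e) lay at 28.5 to 62.6 FPKM in the controls and 50.1, 20.4 and 8.79 in treated livers. Atp5j2 (f) lay at 19.8 to 39.7 FPKM in the controls and 33.4, 16.2 and 4.93 in treated livers. Atp5l (g) lay at 3.13 to 10.1 FPKM against 7.70, 3.30 and 1.32 FPKM. As deposited, the second treated liver was above control replicate 2 for Atp5l, and for the other 2 genes it was below all controls. After scaling, Atp5l was at 6.19, 2.26 and 3.15 FPKM in treated livers against 9.24, 2.74 and 8.28. The second treated liver then lay below all controls for Atp5k, Atp5j2 and Atp5l alike. Atp5l had the lowest control mean of the complex, 7.63 FPKM, and Atp5h the highest, 112 FPKM, a 14.6-fold range of levels per length.

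**Figure D4:**
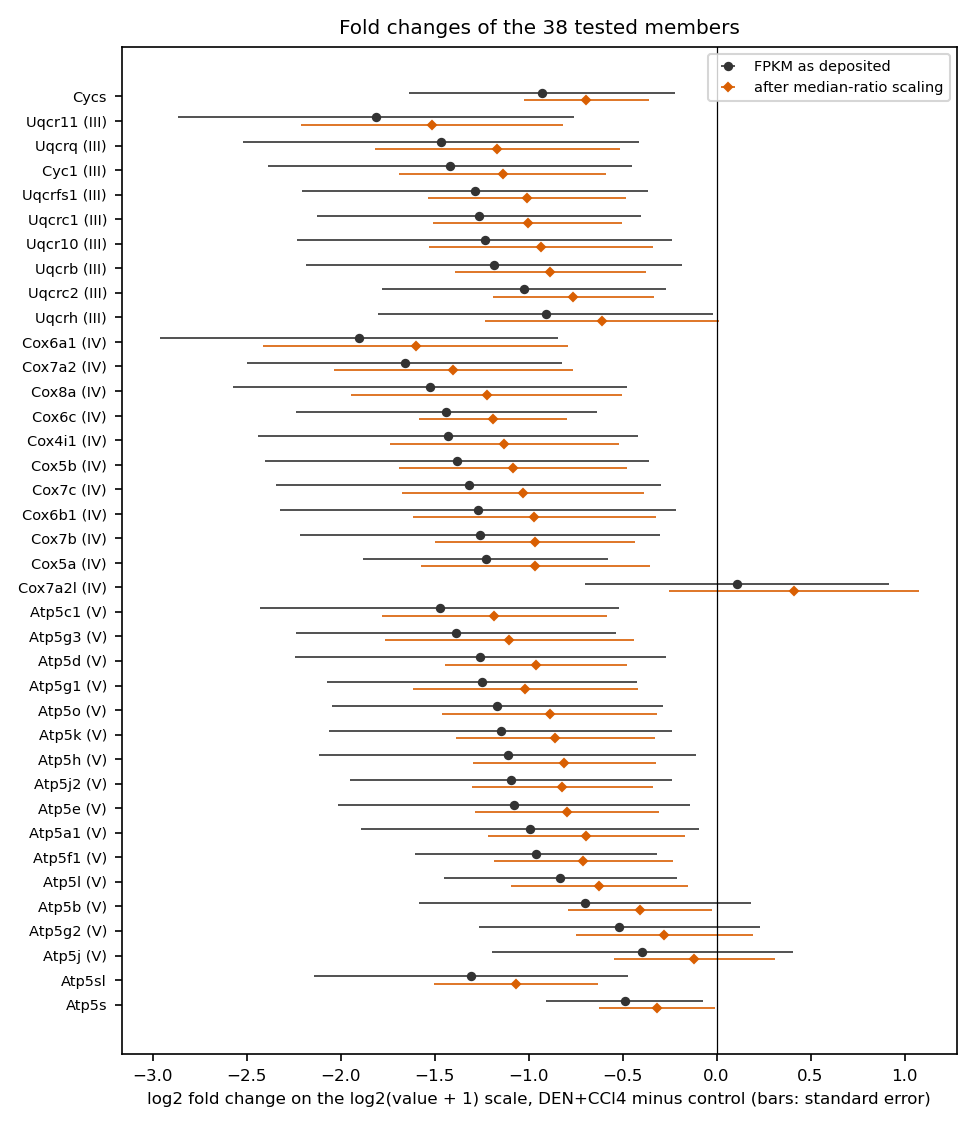
Log2 fold change (treated minus control on the log2(value + 1) scale, bars are the standard error from limma) of the 38 tested members, as deposited (circles) and after median-ratio scaling (diamonds), by complex. All but Cox7a2l lie below 0 in both, and the extremes as deposited are Cox6a1 at -1.90 and Cox7a2l at 0.11.

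The other 2 genes with the Atp5 name are no subunits. Atp5sl, which takes part in complex I assembly, was at 23.3, 37.2 and 29.1 FPKM across the controls and 23.4, 18.8 and 2.82 across treated livers. Control replicate 2, the lowest control for all other tested members after scaling, was the highest for Atp5sl. Its log2 fold change was -1.31 ± 0.83 (SE; limma adjusted p = 0.872), and -1.07 ± 0.44 after scaling (adjusted p = 0.443), where its groups did not overlap. Atp5s (also called factor B) had control values of 1.57, 1.09 and 2.51 FPKM and treated values of 0.41, 2.01 and 0.61 FPKM, with a log2 fold change of -0.49 ± 0.42 (SE; limma adjusted p = 0.996). It passed in 1 setting, with array weights (-1.11 ± 0.22, SE; limma adjusted p = 0.0134), in which 1.57% of all genes passed as lower and DEN+CCl4 replicate 3 had a weight of 0.0621. Both were chosen for description after their values were seen.

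Other gene groups place these values. The 35 complex I subunits tested (without Ndufa4) all had negative log2 fold changes as deposited and after median-ratio scaling, while Ndufs3 was not negative with quantile normalization. They had a median of -1.12 (-0.84 after scaling), beside -1.24 (-0.96) for the members. Mitochondrial ribosomal proteins (73 tested) had a median of -0.61 (-0.40 after scaling) and cytosolic ribosomal proteins (88 tested) -0.19 (0.11). Of the latter, 66 were negative as deposited and 31 after scaling. All 1946 genes whose mean reached 10 FPKM had a median of -0.68 (-0.41), and 2151 genes with exons under 2000 bases -0.37 (-0.19). The median of the members was below all of these and nearest to that of complex I, and no difference between these groups was tested.

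The complexes also hold subunits encoded in the mitochondrial genome. All 6 measured here (mt-Cytb of complex III, mt-Co1, mt-Co2 and mt-Co3 of complex IV, mt-Atp6 and mt-Atp8 of complex V) had positive log2 fold changes, from 0.24 to 1.38 with none past the threshold, but with quantile normalization mt-Cytb was at -0.081 and mt-Co3 at -0.25, and without DEN+CCl4 replicate 3 mt-Cytb was at -0.0026, mt-Co3 at -0.027 and mt-Atp6 at -0.15. The catalytic subunit of complex IV, mt-Co1, was at 57266, 104026 and 71733 FPKM across the controls and 89158, 85375 and 153252 across treated livers. The proton channel subunit mt-Atp6 had 2403, 4207 and 2660.4 FPKM in controls against 2575, 2850.4 and 65143 FPKM in treated livers, and mt-Atp8, whose reading frame overlaps it, had 18347, 30054 and 18876 FPKM against 26001, 28089.5 and 132451 FPKM. DEN+CCl4 replicate 3 was the highest library for all 6, and for mt-Atp6 it exceeded every other library by more than 10-fold.

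The nuclear sum as a percentage of the mitochondrially encoded sum of the same complex, a ratio within a library, was 6.24%, 2.63% and 6.93% for complex III in the controls. In treated livers it was 4.48%, 2.45% and 0.227%. For complex IV it was 2.07%, 0.656% and 1.96% in the controls and 1.34%, 0.546% and 0.0655% in treated livers. For complex V it was 3.53%, 1.32% and 3.72% in the controls and 2.38%, 1.04% and 0.0555% in treated livers. In all 3 complexes DEN+CCl4 replicate 1 lay between control replicate 2 and the other controls, replicate 2 lay just under control replicate 2, and replicate 3 was far below.

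**Figure D5:**
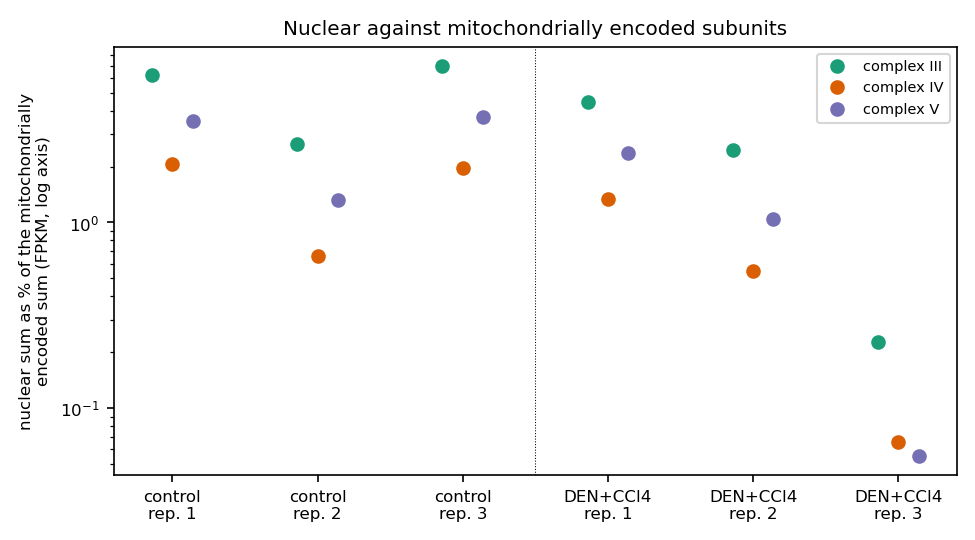
Summed FPKM of the nuclear-encoded subunits as a percentage of the summed FPKM of the mitochondrially encoded subunits of the same complex, in each library, on a log axis. The controls and DEN+CCl4 replicates 1 and 2 lie between 0.546% and 6.93%, and DEN+CCl4 replicate 3 lies between 0.0555% and 0.227%.

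Factors that assemble the complexes were shifted less at the median than the subunits, and none passed in either direction. Many of these factors had low FPKM, where the log2(FPKM + 1) scale understates a change, so the medians are not on equal terms. Among the 38 tested members, control mean FPKM and scaled log2 fold change had a Spearman correlation of -0.61. Of the more abundant factors, Higd2a was at -1.36, Coa6 at -1.41, Fmc1 at -1.34 and Uqcc3 at -1.06. Others of similar level were Uqcc2 at -0.54, Coa3 at -0.52 and Cox20 at -0.15. Of 5 tested complex III assembly factors 5 had negative log2 fold changes (median -0.40, -0.26 after scaling). Uqcc3, which stabilises cytochrome b, was at 38.6, 32.6 and 42.6 FPKM across the controls and 38.9, 21.3 and 6.16 across treated livers, and Uqcc2, another cytochrome b factor, had 22.3, 15.7 and 25.7 FPKM in controls against 22.5, 21.2 and 5.55 FPKM in treated livers. The list for complex IV, 23 tested genes with Ndufa4, had 22 negative (median -0.41, -0.24 after scaling, with 19 negative). Ndufa4, now counted as a complex IV subunit although its name points to complex I, had control values of 103, 24.6 and 106 FPKM and treated values of 48.2, 11.5 and 4.98 FPKM, with a log2 fold change of -2.09 ± 0.91 (SE; limma adjusted p = 0.451), lower than that of any member. Higd2a, which acts in the assembly of complex IV and of supercomplexes, had 84.5, 37.4 and 94.3 FPKM in controls against 79.4, 28.4 and 6.87 FPKM in treated livers.

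Of 5 tested complex V assembly factors and inhibitors, 4 were negative (median -0.42, -0.20 after scaling). Fmc1, an assembly factor of the F1 head, was at 20.97, 8.34 and 16.8 FPKM across the controls and 15.7, 5.70 and 1.03 across treated livers. Atpif1, the inhibitor that stops the enzyme from hydrolysing ATP, had 10.7, 3.80 and 8.40 FPKM in controls against 8.88, 8.59 and 6.11 FPKM in treated livers, and like Cox7a2l its treated values lay inside the control range. Among regulators of mitochondrial biogenesis 9 of 12 were tested and 8 were negative (median -0.32, -0.13 after scaling), none past the threshold. Esrra, a nuclear receptor that acts with Ppargc1a on respiratory chain genes, had control values of 12.98, 18.1 and 18.9 FPKM and treated values of 17.1, 18.7 and 3.79 FPKM, and Polrmt, the mitochondrial RNA polymerase, had 3.99, 6.91 and 6.17 FPKM against 7.02, 7.72 and 1.18 FPKM. For both only DEN+CCl4 replicate 3 was below the controls. Nrf1 and Ppargc1a were under the filter of 1 FPKM, with Ppargc1a at 0.72, 0.97 and 0.84 FPKM in the controls and 0.76, 0.20 and 0.05 in treated livers.

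Cell type markers are given beside these values. Of 6 tested hepatocyte markers, 4 were negative as deposited and 3 after scaling (medians -0.23 and 0.09), with summed FPKM of 27499 to 42684 in the controls and 26575, 62058 and 12107 in treated livers. Their median difference after scaling was -0.08, -0.08 and 0.08 in the treated livers. Single markers went in opposite directions, with scaled log2 fold changes from -1.44 for Ttr to 0.44 for Apob. In the same livers complex III was at -0.07, -1.36 and -1.66. Complex IV was at -0.07, -1.56 and -1.82, and complex V at -0.05, -1.26 and -1.01. All 4 tested markers of stellate cells and myofibroblasts were positive (medians 1.31 and 1.52 after scaling, none past the threshold), with summed FPKM of 5.88 to 10.9 in controls and 16.5, 32.9 and 13.4 in treated livers. Of these 4, Dcn was near 0, with a log2 fold change of 0.02. Lrat, which was not tested, was at 0.40 to 0.58 FPKM in controls and 0.31, 0.35 and 0.15 in treated livers. Both tested cholangiocyte markers were positive, with sums over the list of 9.20 to 16.4 FPKM in controls and 14.5, 34.0 and 25.4 FPKM in treated livers, none past the threshold. Spp1 made up most of each sum, with 12.9, 27.4 and 24.2 FPKM in treated livers. Krt19 was at 0.50 to 0.93 FPKM in controls and 0.86, 3.06 and 0.13 in treated livers. Among the untested ones, Sox9 was at 0.22 to 0.63 FPKM against 0.48, 2.98 and 1.06 FPKM. Epcam was at 0.17 to 0.22 FPKM against 0.11, 0.10 and 0 FPKM. Both tested neutrophil markers were positive, with sums of 1.64 to 4.67 FPKM in controls and 14.9, 5.03 and 21.5 FPKM in treated livers. As deposited, S100a8 alone passed as higher (log2 fold change 1.63 ± 0.46, SE; limma adjusted p = 0.0336). After scaling it was at 1.90 and did not pass (limma adjusted p = 0.443). Macrophage sums as deposited were 48.6 to 125.0 FPKM in the controls and 83.0, 45.2 and 26.4 in treated livers. Endothelial sums were 5.07 to 10.2 against 9.05, 13.4 and 4.76, and lymphocyte sums were 2.94 to 4.56 against 4.83, 5.47 and 1.35. DEN+CCl4 replicate 3 was thus the lowest library for these 3 sums, but not after scaling. Scaled macrophage sums were 41.8 to 114 FPKM in the controls and 66.7, 30.9 and 62.9 in treated livers. Scaled endothelial sums were 4.36 to 8.96 FPKM against 7.27, 9.18 and 11.4 FPKM. Scaled lymphocyte sums in treated livers were 3.88, 3.75 and 3.22 FPKM, all inside the control range. Adipocyte markers summed to at most 0.53 FPKM as deposited. None of the 6 hepatocyte markers in the table was at 0. The part of these cell types in the members' values was not tested.

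Reads of several members cannot be assigned with certainty, because their sequence is shared with processed pseudogenes, overlapping antisense genes or other protein-coding genes. The share of 31-base words also found in other annotated genes was highest for Atp5o (49.6%), Atp5g2 (40.2%), Uqcrb (34.8%), Cycs (29.4%) and Atp5h (25.4%). It was 0 for Uqcrq, Uqcrfs1, Cox8a, Atp5g3, Atp5s and Atp5sl among the tested members. Exons overlap a protein-coding gene on the opposite strand in Uqcrc2 (Pdzd9, 504 bases) and Cox6c (Vps13b, 250 bases) as well, among others.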

How the data were processed

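Expression was measured by RNA-seq of poly(A) RNA from 6 livers, 3 control and 3 DEN+CCl4, grouped by their titles. The authors deposited 1 table of FPKM values with 2 decimals, per the file headers, and HISAT, StringTie and GRCm38 are named in the submitters' processing notes. Tool versions, annotation and strand setting: not given in the sources used here. The table holds no counts, so depth and counting error are unknown.

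Values were tested as log2(FPKM + 1) with limma 3.58.1 in R 4.3.3 (empirical Bayes with trend, two-sided, no covariates) for the 8528 genes whose mean reached 1 FPKM. The Benjamini-Hochberg adjustment ran over all of them, with a threshold of 0.05. A fold change on this scale understates that of low genes. The fit was tested on simulated data in which both groups had the spread of the controls and no library stood apart. That test therefore does not show how the fit behaves with a library such as DEN+CCl4 replicate 3. Of the 43 members 38 were tested and 5 (Cox4i2, Cox6a2, Cox6b2, Cox7a1, Cox8b) fell below the filter. Members and lists were chosen with earlier results of these data known. Values per library were planned for the 3 most abundant members of each complex, those farthest from the complex median, catalytic subunits, isoform sets and the 2 most abundant genes of each companion list. Other members were named after their values were seen.

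The 21 alternatives were 3 other scalings (median ratios, rescaling without mitochondrially encoded genes, quantiles), a pseudocount of 0.1, no filter or one at 5 FPKM, no trend, array weights, the replicate number as a block, and each library left out, with and without median-ratio scaling. Gene positions, exon lengths and 31-base words came from GENCODE M21 (GRCm38), and promoters from RefSeq (GRCm38.p6). Figures used Python 3.11.15 with pandas 2.3.3, numpy 2.4.6 and matplotlib 3.10.9.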

Additional observations from a re-analysis of the deposited data

How the results depend on the processing

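In all 21 alternatives the medians of complexes III, IV and V stayed negative, from -0.40 to -1.92, -0.46 to -2.10 and -0.35 to -1.69, and no fewer than 35 tested members were negative. Members past the threshold numbered 0 as deposited and 0 in 19 alternatives. There was 1 with array weights (Atp5s) and 1 with median-ratio scaling without DEN+CCl4 replicate 1 (Cox6c).

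Of all tested genes 126 passed as deposited. The number was 9 without mitochondrially encoded genes, 9 with a pseudocount of 0.1, 67 with the filter at 5 FPKM and 421 with array weights. It was 0 with median-ratio scaling, quantile normalization, no filter or no trend. Leaving out 1 library gave 0 (without DEN+CCl4 replicate 3) to 392 (without DEN+CCl4 replicate 1), and with median-ratio scaling 0 to 680 (without DEN+CCl4 replicate 1). The causes were not tested. Array weights ranged from 0.0621 for DEN+CCl4 replicate 3 to 11.2 for control replicate 3.

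Direction reversed for 4 members. Cox7a2l was -0.24 with array weights, ranged from -0.35 (without control replicate 2) to 0.42 with 1 library left out, and was -0.040 and -0.27 with median-ratio scaling without control replicate 2 or DEN+CCl4 replicate 3. Atp5b was 0.031 with quantile normalization. Atp5g2 was 0.17 with array weights and ranged from -1.15 to 0.19 with 1 library left out. Atp5j was 0.15 with quantile normalization, 0.53 with array weights and 0.23 with median-ratio scaling without DEN+CCl4 replicate 2, and ranged from -0.99 to 0.15 with 1 library left out.

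With the replicate block, 0 members and 94 genes passed. Deviations of same-numbered libraries had correlations of 0.07, 0.42 and -0.15, and those of differently numbered libraries ran from -0.37 to 0.23. With 3 libraries per group these values cannot decide whether the numbers pair the samples.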
